A study of Mus musculus with 16 samples.

Results

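Mitochondrial fatty acid oxidation was followed through 10 of its enzymes, Cpt1a, Cpt2, Acadm, Acadl, Acadvl, Hadha, Hadhb, Hadh, Etfa and Etfdh, chosen by symbol out of the 55414 genes counted in each library. In this pathway a long-chain fatty acid is bound to carnitine, carried into the mitochondrion and released there as its CoA ester. Repeated rounds of dehydrogenation, hydration, a further dehydrogenation and thiolysis then shorten the chain and yield acetyl-CoA, and the electrons of the first step pass through electron transfer flavoprotein to the respiratory chain. Fatty acid oxidation is known to support the maintenance of haematopoietic stem cells, in mouse through a pathway of Pml and the nuclear receptor Ppard.

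The question was how RNA abundance changes once transcription is blocked, with and without Nat10, the enzyme that acetylates cytidines in RNA. The protocol gives mouse bone marrow as the source, and the cells carried either a Nat10 deficiency (labelled -/-) or the wild-type gene (WT). How the deficiency was made, the animals' age and their strain are not given in the sources used here. All groups were lineage-depleted cultures in stem cell factor, thrombopoietin and heparin that received 5 µM actinomycin D, an inhibitor of RNA synthesis, and the cells sorted at 0, 1, 3 and 5 h were sequenced as polyadenylated RNA with ERCC spike-in RNA. A sort at 4 h named in the protocol is not analysed here. The 8 groups of 2 libraries each are thus Nat10-deficient and WT at these 4 times. The labels call the cells long-term haematopoietic stem cells (LT-HSCs), whereas the sample titles name 32D, a myeloid cell line, and which is meant is not settled here.

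The libraries held 9142413 to 17274128 counts. Levels are given as CPM, counts scaled to a common gene count total per library (CPM are here never scaled further). Nat10 itself had 111 ± 2.5 CPM in libraries labelled Nat10-deficient at 0 h and 103 ± 0.042 CPM in WT libraries (SD, 2 files each), and it was higher in libraries labelled Nat10-deficient at 3 and 5 h too, at 95.6 ± 1.7 against 33.7 ± 3.7 CPM and 154 ± 10 against 16.1 ± 0.89 CPM. Counts over a whole gene do not show whether an exon was deleted, so this neither checks nor contradicts the labels. The 2 headers of every group name the same alignment, and the files of a pair differed little beyond counting noise, with a chi-square per degree of freedom of 1.43 to 1.81 against 77.6 to 406 between neighbouring times. P-values over the 16 files therefore measure a spread that may be technical, and the counts of called genes are also given with the 2 files of a group summed to 1 library. Immunoglobulin genes took 3.92% and 3.89% of gene counts in the Nat10-deficient libraries at 5 h and 59.7% and 59.2% in the WT libraries at 5 h. In the first file of each group at 0, 1 and 3 h they took 6.46%, 9.04% and 24.6% in Nat10-deficient and 3.63%, 25.7% and 49.6% in WT libraries. CPM at every time are taken over a total that holds these genes. All 18 markers of stem cells had counts in every group, and their sum was 2148 to 2158 CPM in Nat10-deficient and 3935 to 3990 CPM in WT libraries at 0 h. ERCC RNA made up 0.0221% to 0.129% of counts in Nat10-deficient and 1.79% to 2.92% in WT libraries.

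All 10 enzymes passed the filter on low counts. At 0 h, exonic length taken into account, 77.2% (Etfdh) to 97.7% (Acadl) of tested genes were lower than a member in Nat10-deficient libraries, and 73.8% (Etfdh) to 97.5% (Acadl) in WT libraries. Acadl, the long-chain acyl-CoA dehydrogenase, led with a level of 88.0 ± 0.020 CPM per kb in Nat10-deficient and 76.1 ± 0.79 CPM per kb in WT libraries (SD, 2 files). Etfa, the alpha subunit of electron transfer flavoprotein, followed at 80.6 ± 2.1 CPM per kb in Nat10-deficient and 72.5 ± 0.19 CPM per kb in WT libraries, and no other member came near these. Etfdh, which passes the electrons on to ubiquinone, was the lowest at 6.78 ± 0.39 CPM per kb in Nat10-deficient and 5.77 ± 0.37 CPM per kb in WT libraries. The other 7 lay between 17.6 and 31.2 CPM per kb in Nat10-deficient and between 17.9 and 35.2 CPM per kb in WT libraries. Within that band Cpt1a stood 9th of the 10 members in Nat10-deficient libraries at every time, whereas in WT libraries it was 6th at 0 h, 9th at 1 h and 10th at 3 and 5 h. In Nat10-deficient libraries the files of neighbours Acadm (21.0 ± 2.3 CPM per kb), Acadvl (22.2 ± 0.84 CPM per kb) and Cpt2 (22.8 ± 0.091 CPM per kb) overlapped at 0 h. In WT libraries those of Cpt2 (26.8 ± 0.010 CPM per kb) and Hadhb (27.0 ± 0.57 CPM per kb) did.

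Cpt1a makes acylcarnitines at the outer mitochondrial membrane and is the rate-controlling entry step of the pathway. In Nat10-deficient libraries it had 131 and 138 CPM (0 h), 131 and 125 CPM (1 h), 68.3 and 62.9 CPM (3 h) and 83.0 and 86.7 CPM (5 h). WT libraries had 198 and 196 CPM (0 h), 132 and 130.4 CPM (1 h), 29.1 and 28.1 CPM (3 h) and 13.2 and 13.1 CPM (5 h). The genotypes did not overlap at 0, 3 or 5 h, with Nat10-deficient libraries the lower ones at 0 h and the higher ones at 3 and 5 h. The log2 difference, Nat10-deficient minus WT after TMM scaling, was -0.33 ± 0.043 (SE) at 0 h, 0.90 ± 0.075 at 3 h and 1.40 ± 0.083 at 5 h. At 5 h 63.0% of the 0 h CPM was left in Nat10-deficient libraries and 6.67% in WT libraries. Scaled on ERCC counts instead, 11.1% was left at 5 h in Nat10-deficient and 4.75% in WT libraries. Immunoglobulin genes took unlike shares of the 2 genotypes at this time, as given above, and with them removed before scaling the log2 difference at 5 h was 1.76 ± 0.081.

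The stretch of Cpt1a upstream of its first annotated exon is shown because this member had the steepest fall and an opposite genotype difference at 0 h, when transcription had not yet been blocked. It is the longest run without an annotated exon among the 250 bases before the RefSeq start, on GRCm38.p6, chr19:3323051-3323284, plus strand. Capitals mark, on either strand, the core AGGTCA that many nuclear receptors bind, found 1 time, and the Sp1 box GGGCGG, found 2 times.
Cpt1a: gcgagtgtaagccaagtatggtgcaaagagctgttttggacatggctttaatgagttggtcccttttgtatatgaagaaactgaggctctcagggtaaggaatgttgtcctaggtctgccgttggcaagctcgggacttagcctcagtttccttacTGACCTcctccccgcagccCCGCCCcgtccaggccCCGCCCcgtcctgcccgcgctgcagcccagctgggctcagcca
In RefSeq windows of 250 bases before to 50 bases after the start, AGGTCA was found for 3 of the 10 members, Acadm, Acadvl and Cpt1a, against 16.3% of 32817 promoters. GGGCGG was found for 7 of 10 members against 35.6% (the windows of Hadha and Hadhb overlap, so the same sites can count for both), CCAAT for 4 against 37.4%, and CCGGAA for 2 against 14.9%. A direct repeat of AGGTCA with 1 base between the copies, the form that PPARs bind, was found for 0 members against 0.0396% of promoters, and TCAAGGTCA, which itself holds AGGTCA and is the form that estrogen-related receptors bind, for 0 against 0.424%. Motifs were searched on both strands.

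Cpt2 turns acylcarnitines back into acyl-CoA at the inner membrane. Its level was 54.7 and 54.4 CPM (0 h), 55.4 and 57.8 CPM (1 h), 22.2 and 24.7 CPM (3 h) and 61.2 and 64.0 CPM (5 h) in Nat10-deficient libraries, against 64.2 and 64.2 CPM (0 h), 46.0 and 39.1 CPM (1 h), 14.2 and 15.7 CPM (3 h) and 9.67 and 10.2 CPM (5 h) in WT libraries. In CPM the course dipped at 3 h and was back above its 0 h level at 5 h in Nat10-deficient libraries, whereas each later time was lower in WT libraries. On ERCC counts the Nat10-deficient level still rose from 3 to 5 h, from 15.0% to 20.3% of its 0 h level, but did not come back above it. After TMM scaling the Nat10-deficient course kept its dip and its return (log2 5.46 at 0 h, 4.61 at 3 h and 5.88 at 5 h). The WT course turned on that scale, being 0.25 higher (log2) at 5 h than at 3 h. The log2 difference of Cpt2 was -0.01 ± 0.067 at 0 h, which missed the threshold (edgeR adjusted p = 0.928), and 1.37 ± 0.10 at 5 h.

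The 3 acyl-CoA dehydrogenases that begin each round are named for the chain length they act on. Acadvl, for very long chains, had 58.1 and 61.3 CPM (0 h), 73.4 and 72.3 CPM (1 h), 62.0 and 66.1 CPM (3 h) and 102 and 95.4 CPM (5 h) in Nat10-deficient libraries. WT libraries had 47.4 and 48.8 CPM (0 h), 57.1 and 54.2 CPM (1 h), 33.0 and 34.1 CPM (3 h) and 31.4 and 32.4 CPM (5 h) of it. It was higher in Nat10-deficient libraries at all 4 times, with log2 differences from 0.33 ± 0.064 at 1 h to 0.64 ± 0.076 at 3 h, and no pair of files overlapped. It overlaps Dvl2 on the other strand, which had 2151 counts over all files against 12775 for Acadvl, and counting without strand leaves reads there uncertain.

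Acadl, for long chains, had 176 and 176 CPM (0 h), 197 and 196 CPM (1 h), 131 and 121 CPM (3 h) and 235 and 247 CPM (5 h) in Nat10-deficient libraries. Its level in WT libraries was 152 and 154 CPM (0 h), 126 and 127 CPM (1 h), 51.3 and 54.6 CPM (3 h) and 39.3 and 40.0 CPM (5 h). The log2 difference was larger at each later time: 0.43 ± 0.040 (0 h), 0.58 ± 0.043 (1 h), 0.96 ± 0.056 (3 h) and 1.31 ± 0.053 (5 h).

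Acadm, for medium chains, had 76.0 and 88.5 CPM (0 h), 93.6 and 97.7 CPM (1 h), 69.2 and 69.2 CPM (3 h) and 102 and 101 CPM (5 h) in Nat10-deficient libraries. The WT libraries held 137 and 138 CPM (0 h), 93.6 and 101 CPM (1 h), 38.7 and 37.3 CPM (3 h) and 25.6 and 24.4 CPM (5 h). Like Cpt1a it was lower in Nat10-deficient libraries at 0 h, by a log2 difference of -0.52 ± 0.050, overlapped between genotypes at 1 h and was higher in Nat10-deficient libraries at 3 and 5 h, by 0.57 ± 0.072 and 0.72 ± 0.071. Acadm was thus one of 2 members, beside Cpt1a, whose genotype difference passed the threshold in opposite directions at different times.

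Hadha and Hadhb are the alpha and beta subunits of the trifunctional protein, which carries out the other 3 steps of a round on long chains. Hadha had 223 and 230.3 CPM (0 h), 286 and 298 CPM (1 h), 245 and 254 CPM (3 h) and 389.7 and 414 CPM (5 h) in Nat10-deficient libraries. The WT files came to 215 and 216 CPM (0 h), 181 and 184 CPM (1 h), 103 and 104.84 CPM (3 h) and 100.03 and 104.77 CPM (5 h). Its log2 difference was 0.30 ± 0.035 at 0 h and 0.97 ± 0.043 at 3 h, the widest of the 4 times for this gene. Hadhb had 206 and 206 CPM (0 h), 238 and 233 CPM (1 h), 177 and 171 CPM (3 h) and 290.1 and 279 CPM (5 h) in Nat10-deficient libraries. For WT the levels were 181 and 175 CPM (0 h), 160.0 and 153 CPM (1 h), 121 and 105.29 CPM (3 h) and 61.6 and 63.2 CPM (5 h). Its log2 difference was 0.43 ± 0.038 at 0 h, 0.33 ± 0.045 at 3 h and 0.90 ± 0.046 at 5 h, so the 2 subunits had unlike values at 3 h, which was not tested further. Both were higher in Nat10-deficient libraries at all 4 times without overlap. Garem2, which overlaps Hadha on the other strand, had 17 counts over all files against 49272 for Hadha.

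The genes lie head to head, with Hadha on chromosome 5 from 30323302 to 30360160 on the minus strand and Hadhb from 30360246 to 30389591 on the plus strand (GRCm39, from the files). The stretch between them is printed because the pair shares it. It lies on GRCm38.p6 at chr5:30155163-30155247, plus strand, is 85 bases long with 69.4% G or C, and has GGGCGG 2 times (capitals).
Hadha-Hadhb: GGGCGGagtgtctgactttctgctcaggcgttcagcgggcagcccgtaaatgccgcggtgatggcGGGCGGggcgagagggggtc

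Hadh, the 3-hydroxyacyl-CoA dehydrogenase for medium and short chains, had 124 and 122 CPM (0 h), 118 and 118 CPM (1 h), 83.7 and 84.7 CPM (3 h) and 97.1 and 104 CPM (5 h) in Nat10-deficient libraries. WT libraries had 125 and 124 CPM (0 h), 98.2 and 95.2 CPM (1 h), 32.4 and 34.9 CPM (3 h) and 43.5 and 44.0 CPM (5 h). It was the one member whose log2 difference at 5 h, -0.09 ± 0.060, missed the threshold (edgeR adjusted p = 0.179), although its CPM did not overlap there, while at 3 h it had the largest difference of the 10, 1.03 ± 0.069. With immunoglobulin genes removed before scaling, the 5 h difference was 0.27 ± 0.059. At 0 h Hadh was called higher in Nat10-deficient libraries after TMM scaling, although its CPM overlapped between genotypes. On long-lived mRNAs its 0 h difference was -0.12 ± 0.046.

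Electrons from the dehydrogenases pass to Etfa and its partner Etfb, and from there to Etfdh. Etfa had 145 and 151 CPM (0 h), 178 and 165 CPM (1 h), 113 and 102 CPM (3 h) and 264 and 251 CPM (5 h) in Nat10-deficient libraries. Its WT levels were 133 and 133 CPM (0 h), 109.6 and 111 CPM (1 h), 48.3 and 50.1 CPM (3 h) and 33.6 and 33.5 CPM (5 h). Its log2 difference of 1.65 ± 0.055 at 5 h was the largest of any member at any time. Etfdh had 52.9 and 48.8 CPM (0 h), 43.6 and 46.7 CPM (1 h), 50.6 and 48.2 CPM (3 h) and 61.0 and 68.3 CPM (5 h) in Nat10-deficient libraries. Levels in WT libraries were 45.3 and 41.4 CPM (0 h), 45.1 and 46.7 CPM (1 h), 33.5 and 35.5 CPM (3 h) and 18.1 and 18.4 CPM (5 h). The 1 h files overlapped, and the log2 difference was 0.45 ± 0.071 at 0 h, 0.22 ± 0.083 at 3 h and 0.54 ± 0.087 at 5 h. Etfdh overlaps 4930579G24Rik on the other strand, which had 4237 counts over all files against 9583 for Etfdh, so reads in the shared part cannot be told apart.

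**Figure D1:**
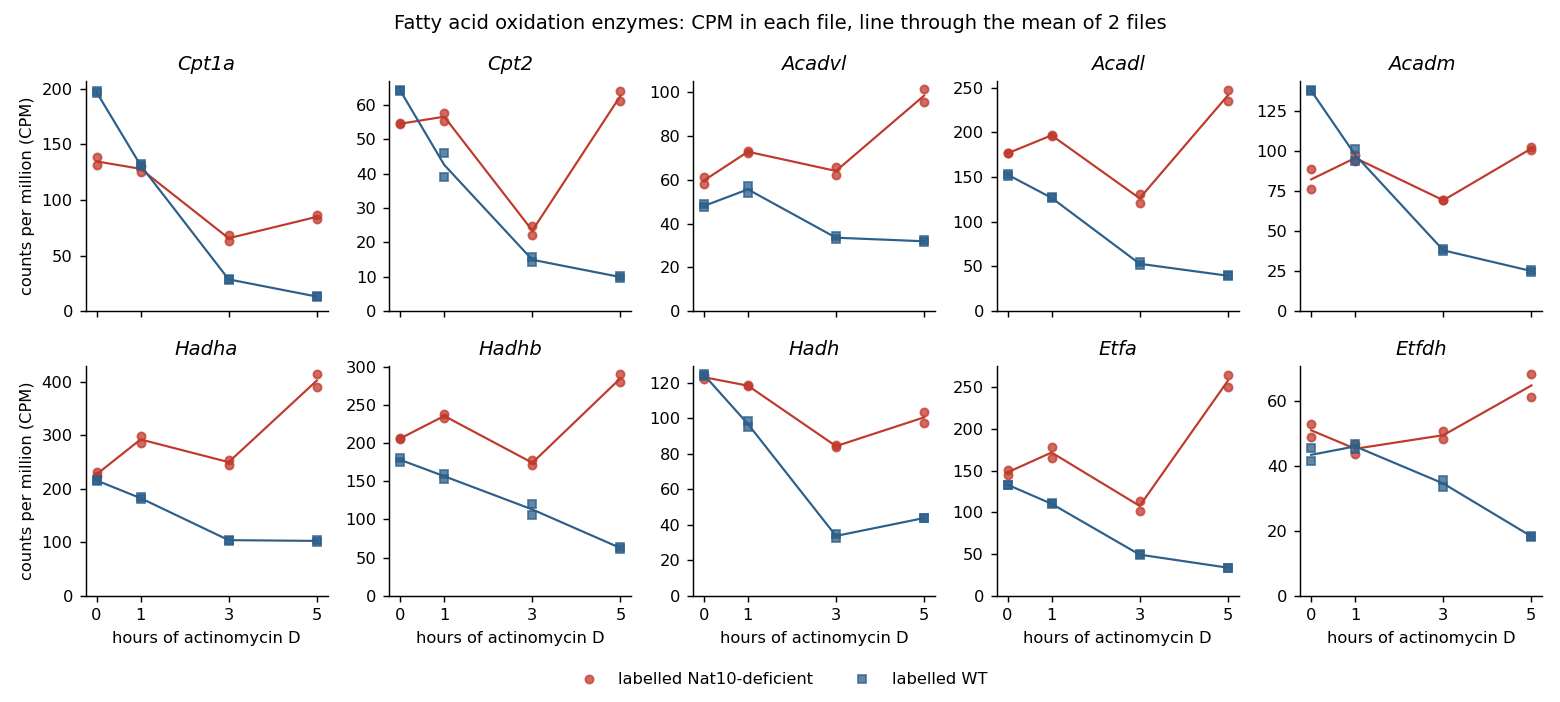
CPM of each of the 10 enzymes (vertical axes, each from 0) against hours of actinomycin D, with a point for each file and a line through the mean of 2 files, for libraries labelled Nat10-deficient (circles) and WT (squares). Cpt1a falls to 13.2 and 13.1 CPM at 5 h in WT libraries, and 8 of the 10 panels show a 5 h level above the 0 h level in Nat10-deficient libraries.

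Between genotypes, 7 of the 10 members were higher and 2 lower in Nat10-deficient than in WT libraries at 0 h, where 36% of the 25081 tested genes were called higher and 24.2% lower. At 1 h 7 members were higher and 0 lower by edgeR (1 lower at an unadjusted p under 0.05, Cpt1a, and 3 lower by the DESeq2 Wald test), with Cpt1a, Acadm and Etfdh not called, against 32.4% and 31.8% of all genes. At 3 h all 10 members were higher by edgeR, against 30.4% of all genes higher and 37% lower. The DESeq2 Wald test called 7 higher at 3 h, against 5240 of 25081 genes. With DESeq2 size factors 7 were higher too, against 6095 genes, and Cpt2 (0.11), Hadhb (0.08) and Etfdh (-0.03) were not called. In the edgeR fit with TMM scaling, Cpt2 (0.32) and Etfdh (0.21) missed the threshold without the first WT 3 h file, which left 8. Each also missed it without 1 of the Nat10-deficient 3 h files. At 5 h 9 members were higher and Hadh was not called, against 34.2% and 30.1%. For the mean of the 4 times all 10 were higher, from 0.17 ± 0.032 (Acadm) to 0.86 ± 0.026 (Etfa), against 31.6% of all genes higher and 21.6% lower. The median log2 difference of the members was 0.33, 0.33, 0.74 and 0.81 at 0, 1, 3 and 5 h. Over all genes tested it was 0.10, 0.00, -0.07 and 0.10. Over the 8291 genes with a mean TMM-scaled log2 level of at least 3 it was 0.18, 0.19, 0.37 and 0.31.

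With the 2 files of each group summed, the difference at a time was read off straight lines over the 4 times. It is thus no test of the libraries of that time alone, and its error includes misfit to the lines. No member was called at 0, 1 or 5 h or for the mean of the times. At 3 h 2 were called, Acadl at 0.96 ± 0.24 and Etfa at 1.07 ± 0.25 (edgeR adjusted p = 0.0496 and 0.0414). The SE depends on the place along the line, for Acadl 0.33 at 0 h and 0.38 at 5 h. Hadh came to 0.26 ± 0.28 at 3 h on its lines. At an unadjusted p under 0.05 the summed files gave 0, 2, 6 and 7 members higher at 0, 1, 3 and 5 h and 5 for the mean. Of the 25081 genes, 1240, 2279, 4885 and 4087 passed that unadjusted cutoff at these times, and 3465 for the mean, in either direction. At the adjusted threshold 0%, 0%, 2.89% and 0% of all genes were called higher at these times with summed files, and 0.0319% for the mean. TMM sets each gene against the rest of its library, and fewer cells of a type and less RNA per cell cannot be told apart in such bulk samples. Scaled on long-lived mRNAs, 3 members were higher and 4 lower in Nat10-deficient libraries at 0 h, against 23.6% and 36.4% of all genes. At 5 h 9 were higher and 1 (Hadh) lower on that scale, against 31% and 32.3%, and for the mean of the times 6 were higher and 2 lower, against 19.4% and 32.9%. Scaled on ERCC counts, all 10 were higher in Nat10-deficient libraries at every time by 5 or more on the log2 scale, with the unlike ERCC shares given above. So were 87.3%, 84.5%, 80.8% and 84.2% of all genes called higher at 0, 1, 3 and 5 h, with medians of 6.24, 5.64, 5.19 and 5.62, so this holds for most genes and is not about the members. For the mean of the times, erythroid, mast cell and basophil, megakaryocyte and eosinophil markers were more often higher than lower in Nat10-deficient libraries. The same held for the members. Stem cell markers (3 higher and 14 lower of 18) and plasma and B cell markers (0 and 15 of 17) were more often lower. So were neutrophil and monocyte markers (5 and 7 of 13) and adipocyte and stromal markers (4 and 6 of 15). Yet at 0 h 16 of the 17 plasma and B cell markers were higher and 0 lower. They then summed to 60680 to 61031 CPM in Nat10-deficient and 34903 to 35028 CPM in WT libraries. Neutrophil and monocyte markers had 7 higher and 3 lower at 0 h. At 3 h stem cell markers had 9 higher and 6 lower, and adipocyte and stromal markers 8 and 5. Of 13 tested erythroid markers 10 were higher and 1 lower for the mean, and all 14 listed had counts in every group. Their sum was 15741 to 15841 CPM in Nat10-deficient and 1812 CPM in WT libraries at 5 h, and 5320 to 5337 CPM in Nat10-deficient and 4837 to 4885 CPM in WT libraries at 0 h. Of 11 tested mast cell and basophil markers 10 were higher and 0 lower for the mean, with a median log2 difference of 1.28, and 11 were higher at 0 h. They summed to 2483 to 2554 CPM in Nat10-deficient and 761 to 770 CPM in WT libraries at 5 h, where Cma1, Tpsb2 and Tpsab1 were at 0 in WT libraries. Of 11 tested megakaryocyte markers 7 were higher and 3 lower for the mean, and at 5 h they summed to 496 to 499 CPM in Nat10-deficient and 152 to 154 CPM in WT libraries. At 0 h 4 were higher and 5 lower, and the sums lay the other way, at 743 to 759 CPM in Nat10-deficient and 1586 to 1602 CPM in WT libraries. Gp1ba, Ppbp, Treml1 and F2rl2 were at 0 in WT libraries at 5 h, and Gp1bb was at 0 in every group. Of 10 eosinophil markers 7 were higher and 2 lower for the mean, with a median of 0.71. They summed to 5758 to 5777 CPM in Nat10-deficient and 1668 to 1698 CPM in WT libraries at 5 h. Yet 4 of the 10 were higher and 5 lower there, with a median of -0.22, and Siglecf and Ccr3 were at 0 in WT libraries. The part of these other cells in the members' differences was not tested. Adipocyte and stromal markers, from cells rich in this pathway, summed to at most 179.7 CPM in any library.

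**Figure D2:**
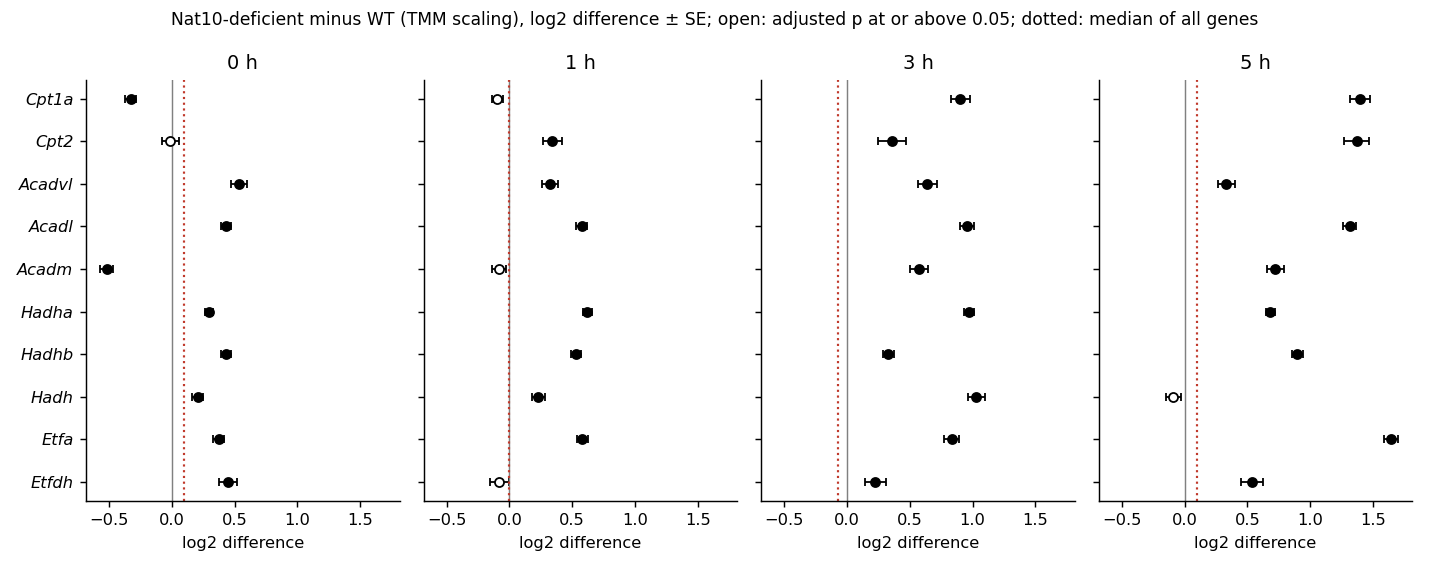
Log2 difference between libraries labelled Nat10-deficient and WT (horizontal axes, TMM scaling, bars ± SE) for each enzyme at 0, 1, 3 and 5 h, with filled points past the threshold of an edgeR adjusted p of 0.05 and open points not. Cpt1a and Acadm lie left of 0 at 0 h and right of it at 3 and 5 h, and Etfa reaches 1.65 at 5 h, while the dotted line, the median of all genes, stays between -0.07 and 0.10.

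How fast each RNA fell was measured as the slope of log2 abundance per hour over the 4 times, scaled on ERCC counts, and its half-life is the time in which that slope takes away 50 percent. All 10 members fell in both genotypes. Against this, 71.3% of all genes fell in Nat10-deficient and 57.4% in WT libraries. Cpt1a fell fastest of the members in both, with a slope of -0.60 ± 0.010 per h (half-life 1.68 ± 0.028 h) in Nat10-deficient and -0.87 ± 0.014 per h (half-life 1.15 ± 0.018 h) in WT libraries (SE). These and the next SEs rest on the spread between the 2 files of a group and leave out misfit to a straight line. With summed files the Cpt1a half-lives were 1.65 ± 0.39 h in Nat10-deficient and 1.15 ± 0.20 h in WT libraries. In WT libraries only 4.78% of the 8291 abundant genes had a lower slope than Cpt1a, and 32.7% did in Nat10-deficient libraries. It was the fastest falling member in both genotypes under each of the 5 scalings tried. Next came Hadh in Nat10-deficient libraries, with -0.50 ± 0.0099 per h (half-life 1.99 ± 0.039 h), and Cpt2 in WT libraries, with -0.61 ± 0.019 per h (half-life 1.65 ± 0.052 h). Slowest were Hadha in Nat10-deficient libraries, with -0.29 ± 0.0076 per h (half-life 3.39 ± 0.087 h), and Acadvl in WT libraries, with -0.20 ± 0.015 per h (half-life 4.95 ± 0.36 h). The median slope of the members was -0.37 per h in Nat10-deficient and -0.43 per h in WT libraries, beside -0.48 and -0.36 per h over all genes in the same 2 genotypes.

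**Figure D3:**
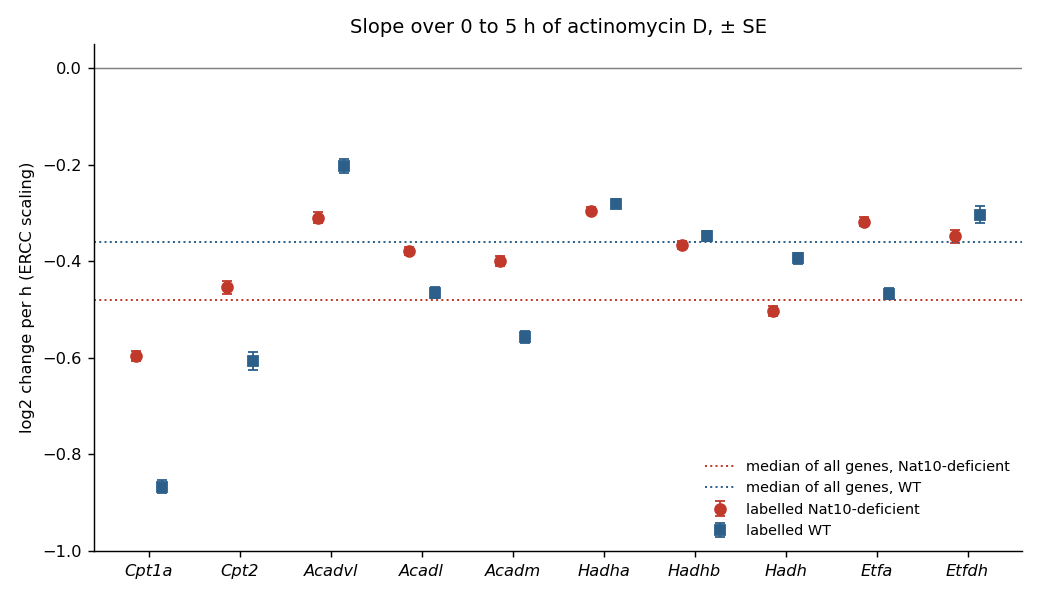
Slope of log2 abundance per hour over 0 to 5 h after ERCC scaling (vertical axis, bars ± SE) for each enzyme in libraries labelled Nat10-deficient (circles, left of each pair) and WT (squares), with dotted lines at the median of all genes. Cpt1a is lowest in both, at -0.60 and -0.87 per h, and Acadvl and Hadh are the members whose Nat10-deficient slope is lower than the WT slope by more than 0.10.

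The difference between these slopes was tested in the same fit. In 5 members, Cpt1a, Cpt2, Acadm, Acadl and Etfa, the fall was slower in Nat10-deficient than in WT libraries, and in 2, Acadvl and Hadh, it was faster, against 15.7% and 32.1% of all genes. Cpt1a had the largest slope difference, 0.27 ± 0.019 per h, above that of 96.4% of abundant genes. Acadm followed with 0.16 ± 0.017, Cpt2 with 0.15 ± 0.025, Etfa with 0.15 ± 0.015 and Acadl with 0.09 ± 0.014. Acadvl and Hadh both came to -0.11 per h, with an SE of 0.019 and 0.016. Hadha (-0.01 ± 0.012), Hadhb (-0.02 ± 0.013) and Etfdh (-0.04 ± 0.022) missed the threshold.

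The slope difference depended on scale and time range. With TMM in place of ERCC scaling, which sets each RNA against the others, 8 members fell more slowly or rose more in Nat10-deficient libraries and 0 did the opposite, against 24.5% and 24.2% of all genes, and Cpt1a had 0.36 ± 0.018 per h. On that scale the Cpt1a slope was -0.11 ± 0.0089 per h in Nat10-deficient and -0.47 ± 0.014 per h in WT libraries, and Cpt1a was the only member that fell in both. Of all genes, 31.8% fell on it in Nat10-deficient and 31.2% in WT libraries. Without the 5 h libraries, a range added after the data were seen, Cpt1a (0.21 ± 0.032) and Acadm (0.14 ± 0.032) still fell more slowly in Nat10-deficient libraries, whereas Cpt2 and Etfa were called the other way, at -0.11 ± 0.048 and -0.07 ± 0.027, and Acadl, at -0.04 ± 0.026, was not called. In all, 3 members then fell more slowly and 5 faster, against 10.2% and 43.4% of all genes. With the files of a group summed, 7 members fell in Nat10-deficient and 6 in WT libraries on the ERCC scale, against 35.4% and 26.7% of all genes. Among members edgeR then called 0 slope differences (Cpt1a 0.26 ± 0.19 per h, edgeR adjusted p = 0.934), against 0.0399% positive and 0.239% negative of all genes. Also 0 members passed at an unadjusted p under 0.05, against 1722 of 25081 genes in either direction. On the TMM scale and with summed files, the WT slope of Cpt1a, -0.47 ± 0.083 per h, was the one slope of a member that passed (edgeR adjusted p = 0.0209), against 1.85% of all genes falling in WT libraries. There 0 slope differences passed. At an unadjusted p under 0.05, 2 members had a positive one, Cpt1a (0.36 ± 0.11 per h) and Acadm (0.24 ± 0.10 per h), against 1853 of 25081 genes in either direction. The ERCC slope in Nat10-deficient libraries also rests on few spike-in counts, 3819 to 19021 per library, and all members dropped to 34.0% (Etfdh) to 49.2% (Hadha) of their 0 h level within the first hour there, where the ERCC share was 0.0584% in the lower of the 1 h files and 0.0221% in the lower of the 0 h files. In WT libraries the members were at 40.7% (Cpt2) to 71.1% (Acadvl) at 1 h.

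**Figure D4:**
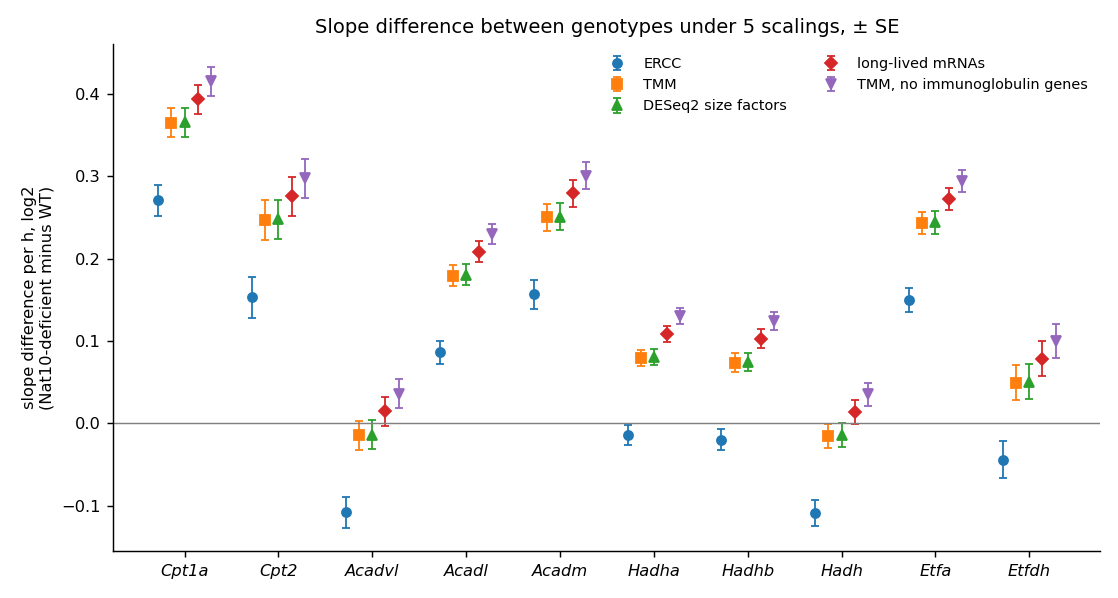
Difference between the Nat10-deficient and WT slopes (vertical axis, log2 per h, bars ± SE) for each enzyme under 5 ways of scaling the libraries. Cpt1a, Cpt2, Acadl, Acadm and Etfa lie above 0 under all 5, with Cpt1a between 0.27 and 0.41, while Hadha, Hadhb and Etfdh lie below 0 with ERCC scaling alone.

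Members differed in how alike their courses were over the 16 files, which share 8 groups and the scaling of each library. The correlation of log2 levels after TMM scaling (Pearson's r, given as a description) was highest for Acadl and Etfa, at 0.983, followed by Acadvl and Hadha at 0.922. Correlations of CPM without that scaling, which could differ in size and sign, were not computed. Hadha and Hadhb, which share their upstream stretch, had an r of 0.866, and each was more like another member. Cpt1a was most like Cpt2 at 0.775 and least like Etfdh at -0.389. Over the 45 pairs the median r was 0.570, and 6 pairs were negative. Among 8275 other abundant genes the 5 most like the mean course of the members were Clns1a (0.991), Bzw2 (0.987), Mrpl34 (0.986), Qtrt1 (0.986) and Pip4k2c (0.985).

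The transcript annotation (GENCODE M21) gave Cpt1a the longest untranslated 3′ end of the 10, 1892 bases with 3 copies of ATTTA, the core of AU-rich elements. Hadha had 1511 bases with 0 copies. Cpt2, Acadl and Etfdh had 1 copy each in 251, 595 and 214 bases, and the other 5 members, Hadh among them, had 0 in 113 to 750 bases. No relation to the slopes was tested.

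The rest of the pathway was read from lists of named genes. Of 12 other mitochondrial enzymes and partners, 10 were higher and 1 lower in Nat10-deficient libraries for the mean of the 4 times, with a median log2 difference of 0.69 beside 0.11 over all genes, of which 31.6% were higher and 21.6% lower. With summed files edgeR called 0 genes of this and the next 4 lists for the mean of the times. At an unadjusted p under 0.05, 7 of these 12 were then higher and 1 lower, against 5 and 0 of the uptake genes, 1 and 1 of the peroxisomal genes, 1 and 1 of the regulators and 4 and 1 of the PPAR targets. Among all 25081 genes, 3465 passed that cutoff in either direction. Acaa2, a mitochondrial thiolase, had 427 ± 4.1 CPM in Nat10-deficient and 61.2 ± 1.5 CPM in WT libraries at 5 h (SD, 2 files), with a mean log2 difference of 1.03 ± 0.021 (SE). Echs1, the short-chain enoyl-CoA hydratase, came to 0.81 ± 0.027 and Etfb, the partner of Etfa, to 0.74 ± 0.067. Acad12, an acyl-CoA dehydrogenase family member, was the one that was lower, at -1.10 ± 0.092. Of 17 tested genes of fatty acid uptake and activation, 8 were higher and 3 lower (median 0.19). Slc25a20, the carnitine-acylcarnitine carrier that works between Cpt1a and Cpt2, was higher at 0.69 ± 0.045, and the transporter Slc27a1 lower at -0.98 ± 0.069. Of 14 peroxisomal genes, 6 were higher and 4 lower (median 0.15).

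Of 15 regulators 7 were higher and 4 lower (median 0.16), and of 9 tested targets of PPAR receptors 4 were higher and 2 lower (median 0.69). Among all genes 31.6% were higher and 21.6% lower. The targets Angptl4, a secreted lipase inhibitor, and Plin2, a lipid droplet coat protein, were higher for the mean of the times at 1.13 ± 0.092 and 1.08 ± 0.036. Of the receptors, Ppara and Ppard were scarce, and levels of Pparg and its partner Rxra are not given here. Ppara had at most 0.902 CPM, the group mean in Nat10-deficient libraries at 5 h, and Ppard had 5.00 ± 0.87 CPM in Nat10-deficient and 9.21 ± 0.93 CPM in WT libraries at 0 h. The coactivator Ppargc1a had 2.96 ± 0.16 CPM in Nat10-deficient and 1.69 ± 0.059 CPM in WT libraries at 0 h, and Esrra had 4.23 ± 0.98 CPM in Nat10-deficient and 5.52 ± 1.2 CPM in WT libraries. Pml, upstream of Ppard in stem cells, had 159.8 ± 7.9 CPM in Nat10-deficient and 209 ± 3.7 CPM in WT libraries at 0 h and a mean log2 difference of -0.04 ± 0.026, which missed the threshold.

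Other routes of carbon metabolism were compared by the same counts. For the mean of the 4 times, 18 of 18 genes of the tricarboxylic acid cycle were higher in Nat10-deficient libraries (median 0.79), 30 of 31 nuclear genes of oxidative phosphorylation (median 0.79), and 12 of 17 genes of glycolysis, with 4 lower (median 0.57), beside 10 of 10 members with a median of 0.49 and 31.6% of all genes. On summed files 0 of them were called by edgeR for the mean. At an unadjusted p under 0.05 higher were 17 of the cycle, 24 of oxidative phosphorylation and 9 of glycolysis, with 1 of glycolysis lower. Of all 25081 genes 3465 passed that cutoff, in either direction. In the slope difference on the ERCC scale, 7 of 18 cycle genes fell more slowly and 5 faster in Nat10-deficient libraries, against 4 and 13 of 31 for oxidative phosphorylation, 3 and 11 of 17 for glycolysis, 5 and 2 of the 10 members, and 15.7% and 32.1% of all genes. With TMM slopes the counts turned to 17 and 1 for the cycle, 16 and 2 for oxidative phosphorylation and 7 and 7 for glycolysis, beside 8 and 0 for the members and 24.5% and 24.2% of all genes. With summed files on the ERCC scale edgeR called 0 slope differences in any of these lists, also 0 at an unadjusted p under 0.05. Whether the members differ from these lists was not tested.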

How the data were processed

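Polyadenylated RNA from 16 mouse libraries, 2 for each genotype and time, was analysed. The deposited values are whole counts of fragments per gene, which the authors made, per the file headers, by unstranded featureCounts 1.6.3, and the headers' columns give the exonic length of each gene. The submitters' processing notes name STAR, featureCounts, DESeq2 and GRCm39. Each file has 55506 entries, 92 of them ERCC spike-ins. Symbols came from GENCODE M21 by gene identifier (52081 of 55414 matched, 94.0%, all 10 members among them), coordinates from the files, and promoter sequence from RefSeq GRCm38.p6.

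Genes kept by filterByExpr (minimum count 10) over the 8 groups, 25081 in all, were fitted with the quasi-likelihood F test of edgeR 4.0.16 in R 4.3.3, with a mean for each group and Benjamini-Hochberg adjustment over all of them at 0.05. Genotypes were compared at each time and for the mean of the times with TMM factors. Slopes were linear contrasts over 0, 1, 3 and 5 h on ERCC scaling, and their difference an interaction contrast. Each SE was taken as the estimate's size divided by root F, and errors on CPM are SDs of 2 files. Low counts limit precision, and polymerase chain reaction copies without molecular identifiers are not independent molecules. Alternatives were other scalings (DESeq2 1.42.0 size factors, 29 long-lived mRNAs, immunoglobulin genes removed), the DESeq2 Wald test, a replicate block, summed files (4 residual degrees of freedom, 3 for the mean) and leaving out each file. With summed files each genotype had a straight line over the times, and the mean used a genotype term beside a term for each time. Scaled fits were tested on simulated data. Correlations used log2 CPM with a prior count of 2.

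Named genes were all members, Nat10, the 3 largest rises and falls of the pathway lists for the mean of the times (mean TMM-scaled log2 level of at least 3), a fixed set of partners and regulators, and the genes most like the members. The members and lists were chosen with earlier results of these data known.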

Additional observations from a re-analysis of the deposited data

Results flagged for a closer look

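For 7 of the 10 enzymes the fall over 0 to 5 h differed between genotypes in a test of the difference itself (edgeR quasi-likelihood F test on ERCC-scaled counts, 16 files). Of all genes, 15.7% had a positive and 32.1% a negative difference. A positive value means a slower fall in libraries labelled Nat10-deficient than in WT libraries. Cpt1a had a slope difference of 0.27 ± 0.019 per h (SE; adjusted p = 5.58e-45), with -0.60 per h in Nat10-deficient and -0.87 per h in WT libraries, and Acadm had 0.16 ± 0.017 per h, with -0.40 in Nat10-deficient and -0.56 in WT libraries. These 2 kept sign and call under all 5 scalings and without the 3 h or the 5 h libraries.

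Cpt2 had a slope difference of 0.15 ± 0.025 per h, Etfa 0.15 ± 0.015 and Acadl 0.09 ± 0.014, and all 3 turned negative without the 5 h libraries. Acadvl had -0.11 ± 0.019 per h and Hadh -0.11 ± 0.016, a faster fall in Nat10-deficient libraries, and both were called neither with TMM nor with DESeq2 size factors. Hadh was called the other way with immunoglobulin genes removed (0.04, adjusted p = 0.0305) and without the 5 h libraries (0.08 per h). With the 2 files of each group summed, none of the 7 differences passed the threshold.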

How the results depend on the processing

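The limits first: the 2 files of a group behave like technical repeats, the ERCC share differs between genotypes, and each time is a separate sort, so every count of called members holds for one choice of scale. Leaving out each of the 16 files in turn kept 1274 of 1280 member values on their side of the threshold and turned 0. The count of members higher at 3 h then ranged from 8 to 10 and of those falling faster in Nat10-deficient libraries from 2 to 4, and the other counts did not move. Cpt2 and Etfdh lost their call at 3 h without 1 Nat10-deficient 3 h file each and without the first WT 3 h file, and Etfdh and Hadha gained a slope difference without the second Nat10-deficient 5 h file. The filter on low counts changed 0 of 80 values. The replicate numbers did not pair the samples (28 pairs of groups, correlation of same-numbered deviations -0.017 to 0.107), and with the number as a replicate block 79 of 80 values kept their call, Cpt1a being called lower at 1 h, so that 1 member instead of 0 was lower there.

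Summing the files of each group, with differences read off straight lines over the times, left 0, 0, 2 and 0 members higher at 0, 1, 3 and 5 h. It also left 0 lower at 0 h, 0 higher for the mean of the times and 6 falling in WT libraries. On the ERCC scale 0 then fell faster and 0 slower in Nat10-deficient libraries. Summed with TMM slopes, 0 members fell in Nat10-deficient and 1 in WT libraries, with 0 faster and 0 slower (2 slower at an unadjusted p under 0.05). The DESeq2 Wald test called 3 members lower at 1 h and 1 lower at 5 h, against 7428 and 7337 of 25081 genes. It called 7 members higher at 3 h and 9 for the mean, against 5240 and 6629 genes, and Etfdh turned to -0.03 at 3 h. Leaving out the 5 h libraries gave 5 members falling faster and 3 slower in Nat10-deficient libraries.

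Scaling moved the median of all genes by up to 0.61 (log2) between TMM and long-lived mRNAs and by about 5.7 with ERCC counts. On long-lived mRNAs the members higher and lower numbered 3 and 4 (0 h), 3 and 4 (1 h), 5 and 3 (3 h), 9 and 1 (5 h) and 6 and 2 (mean), and 6 fell in Nat10-deficient libraries, with 0 faster and 8 slower. Of the 25081 genes, those higher and lower numbered 5913 and 9128 (0 h), 5042 and 11427 (1 h) and 3928 and 13263 (3 h). They came to 7779 and 8104 (5 h) and 4862 and 8262 (mean). In Nat10-deficient libraries 12731 genes fell, and 5555 had a negative and 6828 a positive slope difference. With DESeq2 size factors 3 were lower at 1 h and 1 at 5 h, against 8805 and 7760 of 25081 genes. Higher were 7 at 3 h and 9 for the mean, against 6095 and 6870 genes. On this scale 1 member fell in Nat10-deficient and 5 in WT libraries, against 7040 and 6904 genes. Of members 0 fell faster and 8 slower, against 6065 genes with a negative and 6159 with a positive slope difference. With ERCC differences and TMM slopes 0 were lower at 0 h, 1 fell in Nat10-deficient and 5 in WT libraries, with 0 faster and 8 slower. Of the 25081 genes 2 were lower at 0 h, 7984 fell in Nat10-deficient and 7825 in WT libraries. A negative slope difference was called for 6078 genes and a positive one for 6140. Without immunoglobulin genes 1 fell in Nat10-deficient and 5 in WT libraries, with 0 faster and 9 slower. Of the 24837 genes then tested, 6687 fell in Nat10-deficient and 7880 in WT libraries. Their slope difference was negative for 5001 and positive for 7286. In none of these was the cause tested.

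With DESeq2 size factors the sign turned for the Nat10-deficient slope of Cpt2 (0.07), Acadm (0.12), Acadl (0.14), Acadvl (0.21), Hadha (0.23), Hadhb (0.16), Hadh (0.02), Etfa (0.21), Etfdh (0.18). So did the WT slope of Acadvl (0.23), Hadha (0.15), Hadhb (0.08), Hadh (0.04), Etfdh (0.13). It also turned for the slope difference of Hadha (0.08), Hadhb (0.07), Etfdh (0.05). A turn came too for the difference at 3 h of Etfdh (-0.03). With ERCC differences and TMM slopes it turned for the difference at 0 h of Cpt1a (5.82), Cpt2 (6.13), Acadm (5.62). So did the difference at 1 h of Cpt1a (5.64), Acadm (5.65), Etfdh (5.66). It also turned for the Nat10-deficient slope of Cpt2 (0.03), Acadm (0.09), Acadl (0.11), Acadvl (0.18), Hadha (0.19), Hadhb (0.12), Etfa (0.17), Etfdh (0.14). A turn came too for the WT slope of Acadvl (0.19), Hadha (0.11), Hadhb (0.05), Hadh (0.00), Etfdh (0.09). So did the slope difference of Hadha (0.08), Hadhb (0.07), Etfdh (0.05). It also turned for the difference at 5 h of Hadh (5.55). On long-lived mRNAs it turned for the difference at 1 h of Cpt2 (-0.10), Acadvl (-0.12), Hadh (-0.22). So did the difference at 3 h of Cpt2 (-0.26), Acadm (-0.04), Hadhb (-0.29), Etfdh (-0.39). It also turned for the difference for the mean of the times of Acadm (-0.21), Hadh (-0.04), Etfdh (-0.10). A turn came too for the Nat10-deficient slope of Acadvl (0.03), Hadha (0.04), Etfa (0.02). So did the WT slope of Acadvl (0.01). It also turned for the slope difference of Acadvl (0.01), Hadha (0.11), Hadhb (0.10), Hadh (0.01), Etfdh (0.08). A turn came too for the difference at 0 h of Hadha (-0.03), Hadh (-0.12). Without immunoglobulin genes it turned for the Nat10-deficient slope of Cpt2 (0.08), Acadm (0.14), Acadl (0.16), Acadvl (0.23), Hadha (0.24), Hadhb (0.17), Hadh (0.03), Etfa (0.22), Etfdh (0.19). So did the WT slope of Acadvl (0.19), Hadha (0.11), Hadhb (0.05), Etfdh (0.09). It also turned for the slope difference of Acadvl (0.04), Hadha (0.13), Hadhb (0.12), Hadh (0.04), Etfdh (0.10). A turn came too for the difference at 5 h of Hadh (0.27). Summed with TMM slopes it turned for the Nat10-deficient slope of Cpt2 (0.05), Acadm (0.09), Acadl (0.11), Acadvl (0.18), Hadha (0.19), Hadhb (0.12), Etfa (0.18), Etfdh (0.14). So did the WT slope of Acadvl (0.19), Hadha (0.12), Hadhb (0.05), Hadh (0.02), Etfdh (0.09). Without the 5 h libraries it turned for the slope difference of Cpt2 (-0.11), Acadl (-0.04), Hadh (0.08), Etfa (-0.07). So did the difference for the mean of the times of Acadm (-0.01).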
